A study of Homo sapiens with 8 samples.

Results

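The proteasome genes of SK-UT-1 cells were examined with and without inhibition of BRD9. They were taken as the 48 genes whose symbol is PSMA to PSMG followed by a number, out of 60282 genes listed in each library, and 46 of the 48 were among the 14073 genes expressed above the filter of more than 1 CPM (counts scaled to the size of the library) in 4 or more libraries. SK-UT-1 is a human line established from a leiomyosarcoma of the uterus. The cells received DMSO (vehicle, 4 libraries) or TP-472, an inhibitor of the bromodomain proteins BRD9 and BRD7, at 5 µM for 48 h (4 libraries). The study's methods describe the replicates of its experiments in general as biological. The sample descriptions do not say whether the 4 replicates of a group came from separate cultures, so the p-values measure the spread between these libraries, which may in part be technical. Library totals lay between 32574716 and 36634184 counts for vehicle and between 36246466 and 38545695 counts for TP-472, and each of the 46 expressed genes had at least 217 counts in every library (the lowest was PSMB9 in TP-472 replicate 4). Smooth muscle markers were present in part: CALD1 was expressed at 200 ± 15.3 CPM in vehicle (SD, n = 4), whereas MYH11 did not exceed 1 count in any vehicle library.

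The proteasome is the protease that breaks down ubiquitin-tagged proteins. Its barrel-shaped core particle (20S) is built from rings of alpha subunits (PSMA genes), which gate the entry, and rings of beta subunits (PSMB genes), of which PSMB5, PSMB6 and PSMB7 carry the constitutive catalytic sites. The regulatory particle (19S) adds ATPases that unfold the substrate (PSMC genes) and non-ATPase subunits that bind and remove ubiquitin (PSMD genes). In immune cells and in cells exposed to interferon, PSMB8, PSMB9 and PSMB10 replace PSMB5, PSMB6 and PSMB7 in newly assembled cores, and the activator PA28, made of the products of PSME1 and PSME2, caps them. These immunoproteasomes are known for generating peptides that are presented on MHC class I molecules.

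One vehicle library has to be described first. Vehicle replicate 3 lay below all other vehicle libraries for 31 of the 46 genes and above them for 7, with a median of −0.45 on the log2 scale relative to the mean of vehicle replicates 1, 2 and 4. For the 7 alpha subunits it was the lowest of the group in each case (median −1.03). Over all tested genes it was as often below (43.7%) as above (43.2%) the other vehicle libraries. Its part in the results was not tested beyond leaving it out, and the main counts and the calls that change without it are therefore given both ways.

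Of the 46 genes, 41 had a log2 fold change above 0, and the 5 genes below 0 were PSMB8, PSMB9, PSMB10, PSME1 and PSME2, a split of estimates of which most did not pass the test. PSMD5 (−0.11) and PSMD10 (−0.0025) were also below 0 without vehicle replicate 3, as were PSMB2 (−0.016) and PSMD5 (−0.15) after a correction for GC content. At an adjusted p-value under 0.05, 11 genes were higher, where 17.2% of all tested genes were, and 3 were lower (PSMB9, PSME1 and PSME2), where 19.1% of all tested genes were. Differential expression, defined as an adjusted p-value under 0.05 and a change of more than 1.5-fold, was reached by PSMG1 alone among the higher genes (12% of all tested genes were called higher) and by PSMB9 alone among the lower genes (14.9% of all tested genes). The groups did not overlap in 22 genes that were higher with TP-472 and in 2 that were lower, against 23.8% and 21.6% of all tested genes. Without vehicle replicate 3 these were 26 and 4 genes, against 29.8% and 28.7% of all tested genes. Without vehicle replicate 3, 24 proteasome genes were higher and 5 were lower at an adjusted p-value under 0.05, while 28.6% of all tested genes were higher and 28.5% lower. With the fold limit added, PSMG3 was called higher and PSMB9 and PSME1 lower without this library (12% and 13.1% of all tested genes were called higher and lower).

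**Figure D1:**
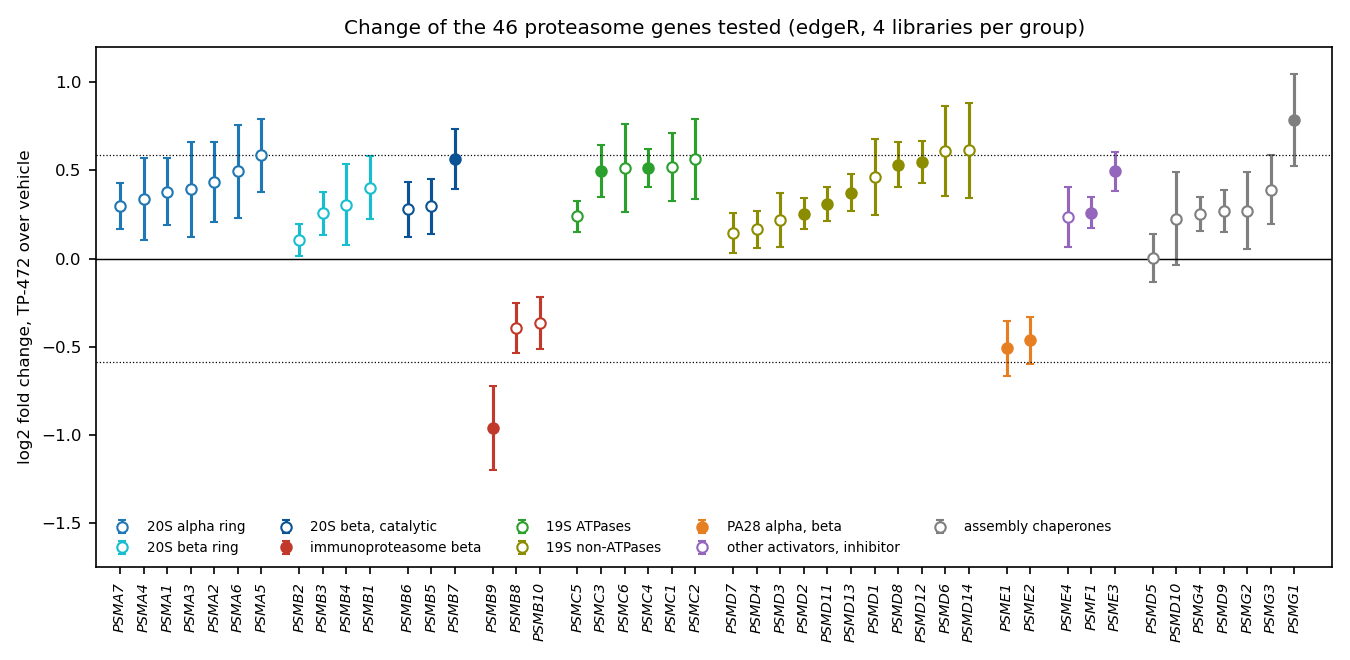
Log2 fold change (TP-472 over vehicle, edgeR, 4 libraries per group) of the 46 proteasome genes tested, grouped by role, with bars of 1 standard error. Filled points have an adjusted p-value under 0.05 and dotted lines mark a change of 1.5-fold. PSMB8, PSMB9, PSMB10, PSME1 and PSME2 lie below 0, and the other 41 genes lie above 0.

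PSMB9, the immunoproteasome subunit that takes the place of PSMB6, showed the most negative change of the 46 genes. Its level was 13.3, 18.1, 8.48 and 17.03 CPM in vehicle replicates 1 to 4 and 7.27, 7.89, 8.32 and 5.73 CPM in TP-472 replicates 1 to 4. The groups did not overlap, although vehicle replicate 3 lay only just above the highest TP-472 library. The mean fell from 14.2 ± 4.33 to 7.31 ± 1.13 CPM (SD, n = 4 each), which is −0.96 as a log2 fold change (standard error 0.24, adjusted p = 0.0148). Leaving out vehicle replicate 3 gave −1.15 (adjusted p = 1.52e-04). The adjusted p-value of PSMB9 remained under 0.05 in all 15 other fits, between 1.52e-04 and 0.0478.

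PSMB8, the counterpart of PSMB5, was measured at 57.7, 68.8, 47.1 and 66.2 CPM in vehicle and at 42.9, 50.6, 49.1 and 40.0 CPM with TP-472. Only vehicle replicate 3 fell within the range of the TP-472 libraries. The log2 fold change was −0.39 (standard error 0.144), which did not pass the test with all 8 libraries (adjusted p = 0.0593), and −0.50 without vehicle replicate 3 (adjusted p = 0.00181). After a correction for GC content it was −0.32 (adjusted p = 0.2), and PSMB8 passed in 2 of the 15 other fits. PSMB10, the counterpart of PSMB7, was measured at 14.7, 18.2, 19.02 and 19.08 CPM in vehicle and at 14.2, 15.1, 14.8 and 11.0 CPM with TP-472. Here vehicle replicate 1, rather than replicate 3, overlapped with the TP-472 libraries. The log2 fold change of PSMB10 was −0.37 with a standard error of 0.147 (adjusted p = 0.0776), −0.34 when vehicle replicate 3 was left out (adjusted p = 0.0499) and −0.092 after a correction for GC content (adjusted p = 0.694). PSMB10 has the highest GC content of the 5 genes (60.1% of its principal transcript).

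PSME1 and PSME2, which encode the alpha and beta chains of the PA28 activator, were the most abundant of the 5 genes per length of transcript. PSME1 was measured at 164, 188, 119 and 189 CPM in vehicle and at 112, 120, 128 and 103 CPM with TP-472. Vehicle replicate 3 lay among the TP-472 libraries and the other 3 vehicle libraries lay above them. PSME1 fell by 0.51 on the log2 scale (standard error 0.156, adjusted p = 0.0325), and by 0.64 without vehicle replicate 3 (adjusted p = 1.87e-04), which took it past the 1.5-fold limit. PSME2 was measured at 167, 210, 149 and 201 CPM in vehicle and at 128, 136, 146 and 118 CPM with TP-472, and the groups did not overlap. It fell by 0.46 on the log2 scale (standard error 0.135, adjusted p = 0.0272), and by 0.55 without vehicle replicate 3 (adjusted p = 9.71e-04). After the correction for GC content PSME2 no longer passed (log2 fold change −0.30, adjusted p = 0.268), while PSME1 did (−0.50, adjusted p = 0.0477). Each of the 2 genes passed in 6 of the 15 other fits.

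**Figure D2:**
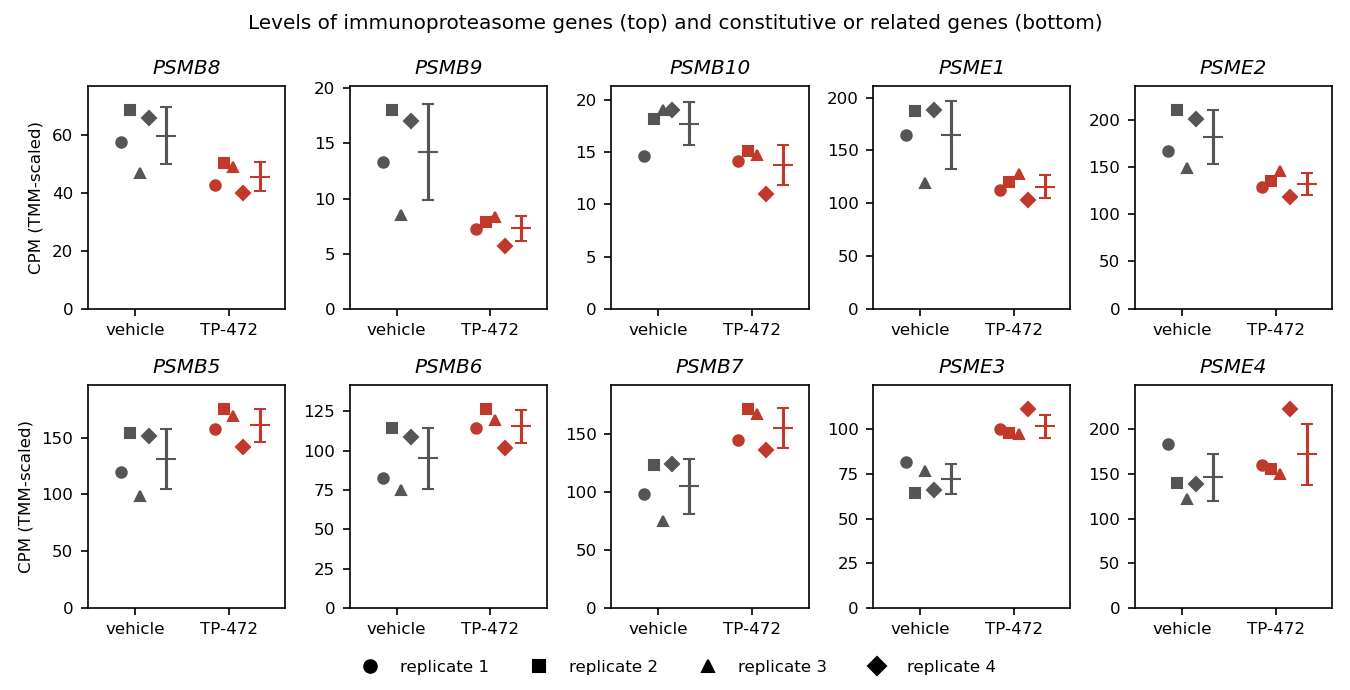
Level (CPM scaled by TMM) in each library of the 5 immunoproteasome and PA28 genes (top) and of PSMB5, PSMB6, PSMB7, PSME3 and PSME4 (bottom). Each symbol is 1 library, the horizontal line is the mean and bars are 1 SD (n = 4). Means in the top row are lower with TP-472, with vehicle replicate 3 (triangle) the lowest vehicle library in 4 of the 5 panels, and means in the bottom row are higher.

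The catalytic subunits that PSMB8, PSMB9 and PSMB10 replace had log2 fold changes above 0. PSMB5, which carries the chymotrypsin-like site, was at 131 ± 26.5 CPM in vehicle and 161 ± 14.6 CPM with TP-472, or 0.30 higher on the log2 scale (standard error 0.156, adjusted p = 0.16). It was 120, 154, 98.4 and 151 CPM in the vehicle libraries and 158, 175, 169 and 142 CPM in the TP-472 libraries, so that TP-472 replicate 4 lay within the vehicle range. PSMB6, which carries the caspase-like site, was at 82.9, 114, 74.9 and 109 CPM in vehicle and 115, 126, 119 and 102 CPM with TP-472 (log2 fold change 0.28, standard error 0.154, adjusted p = 0.18), again with TP-472 replicate 4 inside the vehicle range. PSMB7, which carries the trypsin-like site, was at 98.1, 123, 74.9 and 124 CPM in vehicle and 146, 172, 168 and 137 CPM with TP-472, without overlap. PSMB7 rose by 0.56 on the log2 scale (standard error 0.172, adjusted p = 0.0316).

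Because an immunoproteasome subunit and the subunit it replaces were measured in the same library, their ratio does not depend on how libraries are scaled. The log2 ratio of PSMB8 to PSMB5 was −1.06, −1.16, −1.06 and −1.19 in vehicle and −1.88, −1.79, −1.78 and −1.83 with TP-472. The groups were far apart, and vehicle replicate 3 stood with the other vehicle libraries here. The difference was −0.70 (standard error 0.0404), equal to a 1.63-fold lower ratio. Per length of transcript, PSMB8 amounted to 53.0% ± 2.50 of PSMB5 in vehicle and to 32.6% ± 0.974 with TP-472 (SD, n = 4 each).

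The log2 ratio of PSMB9 to PSMB6 was −2.63, −2.66, −3.14 and −2.67 in vehicle and −3.97, −4.00, −3.84 and −4.15 with TP-472. Vehicle replicate 3 was the lowest vehicle library but stayed above all TP-472 libraries. The difference was −1.21 (standard error 0.136), and per length PSMB9 amounted to 16.0% ± 2.47 of PSMB6 in vehicle and to 6.88% ± 0.594 with TP-472. The log2 ratio of PSMB10 to PSMB7 was −2.74, −2.76, −1.98 and −2.70 in vehicle and −3.36, −3.50, −3.51 and −3.64 with TP-472. In this pair vehicle replicate 3 was the highest library. The difference was −0.96 (standard error 0.198), −0.77 without vehicle replicate 3, and −0.62 as the difference of the GC-corrected fold changes. For each of the 3 ratios a two-sided exact permutation test over the 70 assignments of the libraries gave p = 0.0286 (0.0286 after Benjamini-Hochberg adjustment over the 3 ratios), the smallest value that 4 against 4 libraries allow.

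**Figure D3:**
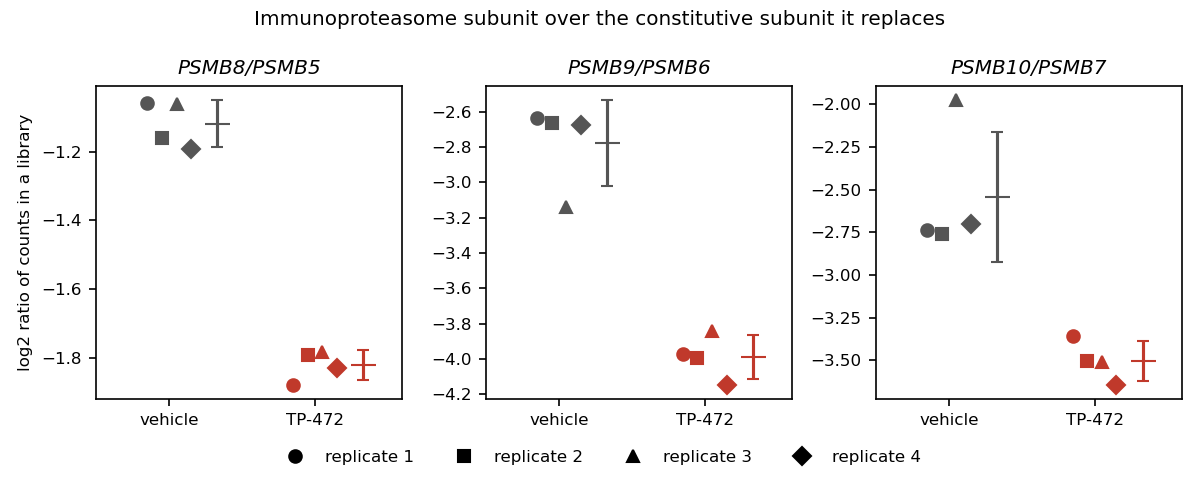
Log2 ratio of the counts of an immunoproteasome subunit to those of the constitutive subunit it replaces, in each library, with mean and SD (n = 4). The y axes differ between panels and do not start at 0. All TP-472 libraries lie below all vehicle libraries in each panel, and vehicle replicate 3 (triangle) is apart from its group in the panels of PSMB9/PSMB6 and PSMB10/PSMB7.

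The promoters of these genes were searched because the interferon-stimulated response element, bound by interferon regulatory factors and by the complex that contains STAT2 and IRF9, is a known element of immunoproteasome genes. RefSeq start sites (GRCh38.p14) gave a window of 250 bases before to 50 bases after the start for 42 of the 48 genes. The core, GAAA and GAAA with any 2 bases between them, was searched on both strands and found in 3.57% of the 35116 promoters of all genes, or in 4.38% of 27305 genes counted once. It was found in 7 of the 42 genes: PSMB8, PSMB10, PSME1, PSME2, PSMA4, PSMB4 and PSMG4. The first 4 are among the 5 genes with a log2 fold change below 0, and 2 of the 26 constitutive subunits with a window, PSMA4 and PSMB4, held a match. The matches in PSMB8, PSMB10, PSME1 and PSME2 lay within 28 bases of the start site. They are shown 5′ to 3′ on the strand of the gene with the 10 matching bases in capitals. In PSMB8 and PSME1 the match is on the opposite strand and therefore reads as its reverse complement.
PSMB8, chr6:32844032-32844061, minus strand: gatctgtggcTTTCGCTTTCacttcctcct
PSMB10, chr16:67936852-67936881, minus strand: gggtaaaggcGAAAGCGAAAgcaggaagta
PSME1, chr14:24136189-24136218, plus strand: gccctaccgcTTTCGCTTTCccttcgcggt
PSME2, chr14:24146619-24146648, minus strand: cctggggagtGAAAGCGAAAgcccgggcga

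All 4 stretches hold the same 10 bases, GAAAGCGAAA, on one strand or the other. These letters were not in the window of PSMB9, the gene with the most negative change. PSMB9 is transcribed away from TAP1, whose 2 RefSeq start sites lie 488 and 1431 bases from that of PSMB9. The window of the nearer TAP1 start held 2 overlapping matches that begin 354 and 360 bases from the start site of PSMB9. PSMA4, PSMB4 and PSMG4, which also hold the core, had log2 fold changes of 0.34 (adjusted p = 0.272), 0.31 (adjusted p = 0.314) and 0.25 (adjusted p = 0.0634). The STAT site TTCNNNGAA, where N is any base, was found in 7.66% of all promoters (9.38% of genes) and in 8 of the 42 genes, of which PSMB8 is the only one of the 5. The antioxidant response element core TGACNNNGC, as bound by the proteasome gene regulators NFE2L1 and NFE2L2, was found in 13.3% of all promoters (16.1% of genes), in 15 of the 42 genes, in 7 of the 26 constitutive subunits and in 3 of the 5 genes (PSMB9, PSME1 and PSME2). Matches to different motifs overlapped in 0 of the proteasome promoters. A match is a string of letters in a window and was not tested for binding.

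Of the constitutive subunits, all 31 had a log2 fold change above 0, from 0.11 (PSMB2) to 0.61 (PSMD14), with a median of 0.39, where the median of all tested genes was −0.026. At an adjusted p-value under 0.05, 8 of the 31 were higher, and TP-472 was without overlap above vehicle for 18, where 17.2% and 23.8% of all tested genes were. None was called with the fold limit by edgeR or by DESeq2 (0 of 31 in each). Of all tested genes edgeR called 12% higher, and DESeq2 called 5555 genes, higher or lower. At an unadjusted p-value under 0.05, 3 of 31 exceeded 1.5-fold upwards (13.2% of all tested genes). Without vehicle replicate 3 the median was 0.26 and 18 of 31 passed the test (28.6% of all tested genes were higher). The median standard error of the 46 log2 fold changes was 0.155 with this library and 0.0902 without it.

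The 7 alpha subunits had log2 fold changes between 0.30 (PSMA7) and 0.59 (PSMA5), and none passed edgeR's or DESeq2's test after adjustment (0 of 7), with 2 of 7 at an unadjusted p-value under 0.05 (22.3% of all tested genes were higher at this limit). PSMA5 was at 95.2, 125, 61.6 and 121 CPM in vehicle and 148, 167, 155 and 135 CPM with TP-472. Its groups did not overlap, with the lowest level in vehicle replicate 3, and its change of 0.59 on the log2 scale (standard error 0.208) had an adjusted p of 0.0532. With vehicle replicate 3 left out the change was 0.41 (adjusted p = 0.00859). PSMA7, the most abundant alpha subunit per length, was at 180, 223, 170 and 215 CPM in vehicle and 243, 270, 248 and 206 CPM with TP-472, and TP-472 replicate 4 lay within the vehicle range (log2 fold change 0.30, standard error 0.131, adjusted p = 0.103).

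PSMA3 shows how far vehicle replicate 3 was from its group. This alpha subunit was at 85.7, 109, 38.8 and 102 CPM in vehicle and at 108, 114, 115 and 104 CPM with TP-472. The log2 fold change was 0.39 with all libraries (adjusted p = 0.275) and 0.15 without vehicle replicate 3 (adjusted p = 0.154). The summed level of the 7 alpha genes, in CPM per kilobase of transcript, was 616, 792, 413 and 755 in vehicle and 829, 897, 892 and 762 with TP-472.

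Of the 7 constitutive beta subunits PSMB7 passed the test, joined by PSMB1 without vehicle replicate 3 (17.2% and 28.6% of all tested genes were higher), and the median log2 fold change was 0.30. PSMB2, a structural subunit, had the smallest estimate of the 31, at 135, 137, 152 and 137 CPM in vehicle against 143, 154, 158 and 151 CPM with TP-472 (log2 fold change 0.11, standard error 0.0907, adjusted p = 0.377). It is an exception to the pattern above, as vehicle replicate 3 was here the highest vehicle library. The other structural subunits PSMB1, PSMB3 and PSMB4 had log2 fold changes between 0.26 and 0.40 and did not pass with all libraries.

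In the 19S particle 7 of 17 subunits passed the test, against 1 of 14 in the 20S core (17.2% of all tested genes were higher). Without vehicle replicate 3 these were 15 of 17 and 3 of 14 (28.6% of all tested genes), and the difference was not itself tested. The 6 ATPases, which form the ring that pulls the substrate into the core, had a median log2 fold change of 0.51, and for 6 of 6 all TP-472 libraries were above all vehicle libraries, as for 23.8% of all tested genes. PSMC3 and PSMC4 passed with all libraries, and 6 of 6 ATPases passed without vehicle replicate 3. PSMC4 was at 76.5, 90.3, 102 and 89.4 CPM in vehicle and 128, 128, 134 and 122 CPM with TP-472. Vehicle replicate 3 was the highest vehicle library for PSMC4, and the gene rose by 0.51 on the log2 scale (standard error 0.109, adjusted p = 0.00737), or by 0.58 without that library (adjusted p = 1.48e-04). PSMC2 had the highest estimate of the ATPases, from 91.1, 118, 50.8 and 109 CPM to 133, 135, 145 and 131 CPM (log2 fold change 0.56, standard error 0.227), but a vehicle spread that left it at an adjusted p of 0.0802. PSMC5 had the lowest, from 97.2, 99.4, 109 and 98.7 CPM to 119, 120, 122 and 116 CPM (log2 fold change 0.24, standard error 0.087, adjusted p = 0.0573).

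Of the 11 non-ATPase subunits, 5 passed the test, namely PSMD2, PSMD8, PSMD11, PSMD12 and PSMD13, and 9 passed without vehicle replicate 3, where 17.2% and 28.6% of all tested genes were higher. PSMD2, a large scaffold subunit of the base, varied little between vehicle libraries, at 419, 418, 412 and 410 CPM in vehicle and 483, 507, 506 and 484 CPM with TP-472. Vehicle replicate 3 was close to its group for this gene, and the rise was small (log2 fold change 0.26, standard error 0.0888, adjusted p = 0.0499). PSMD12, a subunit of the lid, rose from 121 ± 15.9 to 177 ± 11.3 CPM (SD, n = 4 each; log2 fold change 0.55, standard error 0.12, adjusted p = 0.00835). PSMD14, the deubiquitinase of the lid, had the highest estimate, from 125, 159, 57.3 and 150 CPM to 179, 192, 196 and 185 CPM. Its change of 0.61 on the log2 scale (standard error 0.27, adjusted p = 0.102) rested in part on the low vehicle replicate 3 and was 0.37 without it (adjusted p = 0.00418). PSMD7, another lid subunit, had the smallest estimate, at 73.0, 97.2, 83.6 and 94.2 CPM against 94.8, 95.5, 103 and 91.4 CPM (log2 fold change 0.15, standard error 0.114, adjusted p = 0.335). Summed over the 17 subunits, the 19S particle was at 1057 ± 122 CPM per kilobase in vehicle and 1397 ± 73.6 CPM per kilobase with TP-472.

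**Figure D4:**
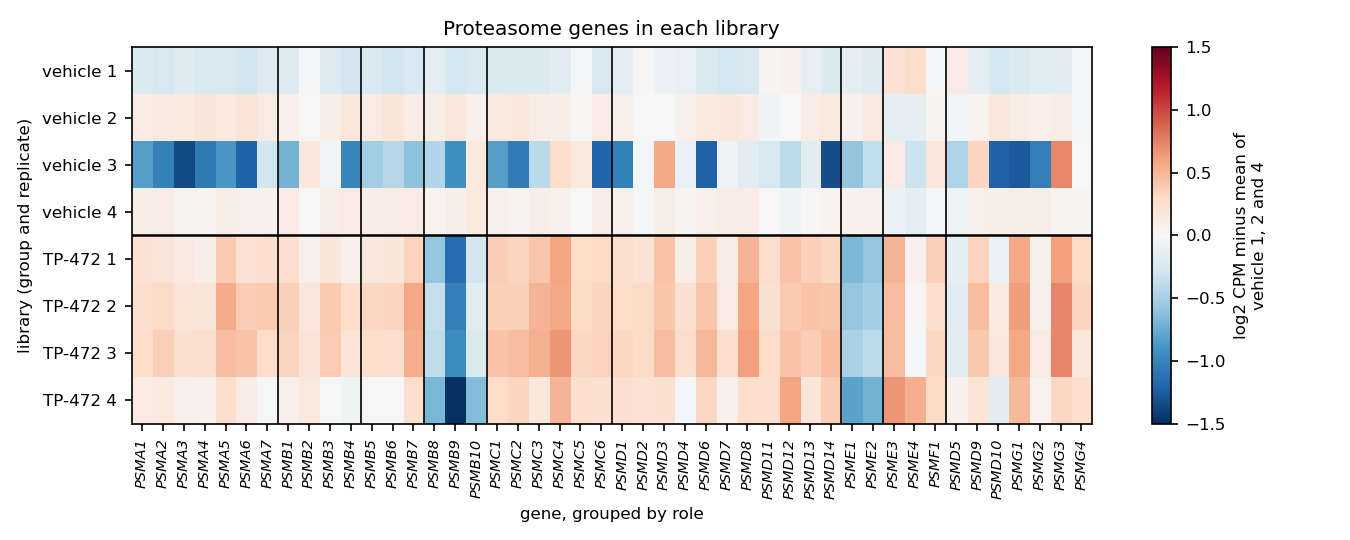
Log2 CPM of each proteasome gene in each library relative to the mean of vehicle replicates 1, 2 and 4, with genes in columns by role (separated by vertical lines) and libraries in rows. Vehicle replicate 3 is lower than the other vehicle libraries for most genes, the TP-472 rows are mostly above 0, and PSMB8, PSMB9, PSMB10, PSME1 and PSME2 are below 0 in the TP-472 rows.

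PSME3, which encodes PA28 gamma, the nuclear relative of the chains encoded by PSME1 and PSME2, moved in the opposite direction to them. It was at 81.8, 64.3, 76.4 and 66.1 CPM in vehicle and 100, 98.0, 97.4 and 111 CPM with TP-472. The groups did not overlap, and PSME3 rose by 0.49 on the log2 scale (standard error 0.111, adjusted p = 0.00956), with an adjusted p-value under 0.05 in all 15 other fits. PSMF1, which encodes the proteasome inhibitor PI31, rose from 64.9 ± 4.03 to 77.8 ± 2.32 CPM (SD, n = 4 each; log2 fold change 0.26, standard error 0.0902, adjusted p = 0.0487), but did not pass after the correction for GC content (0.16, adjusted p = 0.115). PSME4, the large activator PA200, did not pass, at 183, 139, 122 and 139 CPM in vehicle and 160, 155, 150 and 223 CPM with TP-472 (log2 fold change 0.23, standard error 0.17, adjusted p = 0.299). Its high value came from TP-472 replicate 4.

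The assembly chaperones help the core and the base to form and are not part of the finished particle. Of 7 such genes PSMG1, a chaperone of alpha ring assembly, passed with all libraries (17.2% of all tested genes were higher), and PSMG1, PSMG3, PSMG4 and PSMD9 passed without vehicle replicate 3 (28.6%). It was at 49.1, 61.8, 23.9 and 61.4 CPM in vehicle and 84.5, 88.3, 85.3 and 80.3 CPM with TP-472. No library overlapped, and vehicle replicate 3 was far below the rest. PSMG1 rose by 0.79 on the log2 scale (standard error 0.26, adjusted p = 0.042), and by 0.55 without vehicle replicate 3 (adjusted p = 5.09e-04), which is under the 1.5-fold limit. The call of PSMG1 was lost in 6 of the 8 fits that left out 1 library, with adjusted p-values up to 0.0959. Its partner PSMG2 had a log2 fold change of 0.27 (adjusted p = 0.348). PSMG3 had a log2 fold change of 0.39 (adjusted p = 0.143) with all libraries and 0.60 (adjusted p = 0.00153) without vehicle replicate 3, the highest vehicle library for this gene. PSMD5, a chaperone of the base, was at 77, 69.0, 51.4 and 67.2 CPM in vehicle and 63.9, 63.8, 63.1 and 74.1 CPM with TP-472, with overlap (log2 fold change 0.0019, standard error 0.135, adjusted p = 0.992). PSMD10, another base chaperone, had a log2 fold change of 0.23 with all libraries (adjusted p = 0.519) and of −0.0025 without vehicle replicate 3 (adjusted p = 0.987).

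**Figure D5:**
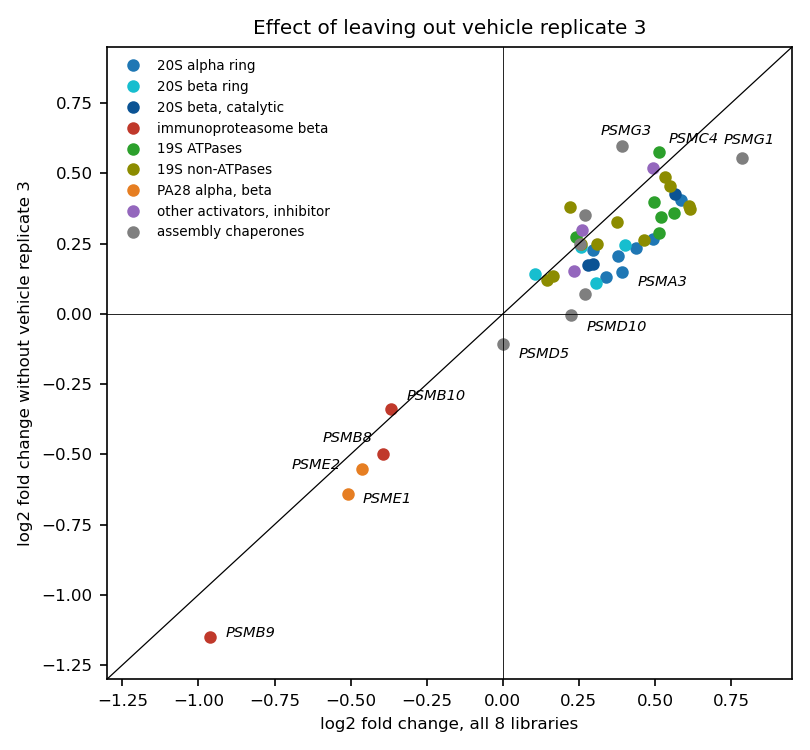
Log2 fold change of the 46 genes with all 8 libraries (x axis) and without vehicle replicate 3 (y axis), coloured by role. The diagonal marks equal values. PSMB8, PSMB9, PSME1 and PSME2 lie below the diagonal at negative values, most constitutive subunits lie below it at positive values, and PSMD5 and PSMD10 are below 0 without this library.

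The remaining 2 members are restricted to single tissues and stayed under the filter. PSMA8, the alpha subunit of the testis, had 0 counts in 7 libraries and 1 count in TP-472 replicate 4. PSMB11, the beta subunit of the thymic cortex, had 0 counts in all vehicle libraries and 1, 3, 2 and 1 counts in the TP-472 libraries. Both groups were at or under 3 counts per library, and no fold change is given.

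Genes without a PSM symbol that belong to the proteasome or assist it were examined as a separate list of 11. POMP, the maturation factor of the core, and TXNL1, a thioredoxin-like protein bound to the 19S particle, were differentially expressed and higher (12% of all tested genes were called higher). POMP was at 42.3, 53.6, 25.7 and 52.9 CPM in vehicle and 74.7, 79.6, 77.1 and 70.2 CPM with TP-472, without overlap (log2 fold change 0.79, adjusted p = 0.0196, and 0.60, adjusted p = 4.05e-04, without vehicle replicate 3). TXNL1 had a log2 fold change of 0.60 (adjusted p = 0.0348). It was 0.42 without vehicle replicate 3, under the fold limit. PAAF1, which binds the 19S ATPases, fell by 0.39 on the log2 scale (adjusted p = 0.0207), under the fold limit. The other 8 genes of this list did not pass with all libraries. Without vehicle replicate 3, ADRM1, a ubiquitin receptor of the 19S particle, moved from 0.39 (adjusted p = 0.191) to 0.66 (adjusted p = 5.34e-04) and was called higher, and UCHL5, a deubiquitinase bound to it, passed at 0.31 (adjusted p = 0.00467). Of 4 regulators of proteasome genes, DDI2, the protease that activates NFE2L1, rose from 50.4 ± 2.94 to 75.3 ± 11.2 CPM (SD, n = 4 each; log2 fold change 0.58, adjusted p = 0.00737). NFE2L1 itself had a log2 fold change of −0.25 (adjusted p = 0.19) and NFE2L2 of 0.028 (adjusted p = 0.85).

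Among ubiquitin and shuttle genes, UBA1, the main ubiquitin-activating enzyme, fell by 0.51 on the log2 scale (adjusted p = 0.0135), under the fold limit. VCP, the segregase that extracts ubiquitinated proteins, had a log2 fold change of 0.31 (adjusted p = 0.0678), or 0.25 without vehicle replicate 3 (adjusted p = 0.0334), and UBB was listed at no more than 1 count in any library.

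Regulators of the immunoproteasome genes formed a list of 13, of which 5 were differentially expressed, each lower (14.9% of all tested genes were called lower). Leaving out vehicle replicate 3, 4 were called lower and 7 were lower at an adjusted p-value under 0.05 (13.1% and 28.5% of all tested genes). IRF9, the DNA-binding partner of STAT2, was at 47.1, 53.6, 68.7 and 50.4 CPM in vehicle and 18.95, 19.5, 20.3 and 15.5 CPM with TP-472, with the highest vehicle level in replicate 3. IRF9 fell by 1.57 on the log2 scale (standard error 0.15, adjusted p = 2.08e-04). STAT2 fell by 1.41 (standard error 0.111, adjusted p = 8.1e-05). IRF2 fell by 0.69 (adjusted p = 0.00667, and by 0.58 without vehicle replicate 3, under the fold limit). NLRC5, the transactivator of MHC class I genes, fell by 1.23 (adjusted p = 0.00799, and by 0.88 without vehicle replicate 3). IRF1, the interferon regulatory factor known to act on PSMB9 and TAP1, had a log2 fold change of −0.36 (adjusted p = 0.0511) with groups that did not overlap, and passed without vehicle replicate 3 at −0.24 (adjusted p = 0.00565). The receptor genes IFNAR1, IFNAR2, IFNGR1 and IFNGR2 and the kinases JAK1 and JAK2 did not pass with all libraries, with log2 fold changes between −0.25 and 0.26. JAK2 passed without vehicle replicate 3 at −0.27 (adjusted p = 0.00751), where IFNGR1 went from 0.26 to 0.030.

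Downstream of the proteasome, 3 of 9 genes of MHC class I peptide loading were differentially expressed, and these 3 were lower, with and without vehicle replicate 3 (14.9% and 13.1% of all tested genes were called lower). ERAP2 and ERAP1, the aminopeptidases that trim peptides in the endoplasmic reticulum, fell by 1.09 (standard error 0.113, adjusted p = 2.79e-04) and 0.60 (standard error 0.152, adjusted p = 0.0156) on the log2 scale. TAPBP, the tapasin of the loading complex, fell by 1.15 (standard error 0.279, adjusted p = 0.0133), and by 0.79 without vehicle replicate 3, in which it was at 163 CPM against 64.4 to 96.3 CPM in the other vehicle libraries. TAP1 and TAP2, the peptide transporter, did not pass (log2 fold changes −0.053, adjusted p = 0.735, and −0.13, adjusted p = 0.322). TAP1 was at 92.0, 104, 87.9 and 107 CPM in vehicle and 90.2, 102, 103 and 82.6 CPM with TP-472, and the groups overlapped. B2M had a log2 fold change of 0.088 (adjusted p = 0.822), which turned to −0.16 without vehicle replicate 3 (adjusted p = 0.246). CANX, a chaperone of the loading pathway, passed at 0.27 without that library (adjusted p = 0.00737) and not with it (0.43, adjusted p = 0.0864).

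The position of the 5 genes bears on how their counts are read. On GRCh38 (GENCODE 29) PSMB8 (ENSG00000204264.12) lies on the minus strand of chromosome 6 from 32840717 to 32844703. PSMB9 (ENSG00000240065.8) lies on the plus strand from 32844136 to 32859585, which in this annotation overlaps PSMB8, the antisense transcript PSMB8-AS1 and TAP1. PSMB8-AS1 had 44 to 99 counts per library, against 1512 to 2394 counts for PSMB8, and fell by 0.68 on the log2 scale (adjusted p = 0.0255). The study's methods call the libraries strand-specific, whereas the kit named in the sample descriptions is a TruSeq RNA kit with no mention of strand. Whether the counting used the strand of the reads is not given in the sources used here, so that reads from these overlapping genes may not be fully told apart. TAP2 and TAP1, which flank or overlap PSMB8 and PSMB9, did not pass.

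PSMB10 (ENSG00000205220.12) lies on chromosome 16 from 67934502 to 67937087. There it overlaps AC040162.1 on the same strand (log2 fold change 0.54, adjusted p = 0.0593, and 0.73, adjusted p = 0.00145, without vehicle replicate 3). Within 25 kb of PSMB10, CTRL was higher (1.10, adjusted p = 0.00863) and PSKH1 lower (−0.91, adjusted p = 0.0119, and −0.66 without vehicle replicate 3), while LCAT and SLC12A4 did not pass. CTRL was near the filter, at 1.30 ± 0.466 CPM in vehicle and 2.79 ± 0.122 CPM with TP-472 (SD, n = 4 each). PSME1 (ENSG00000092010.15; 24136158 to 24138967) and PSME2 (ENSG00000100911.16; 24143362 to 24147570) are neighbours on chromosome 14. EMC9, which lies between them, did not pass (log2 fold change 0.18, adjusted p = 0.347). RNF31, a subunit of the linear ubiquitin ligase (−0.52, adjusted p = 0.00711), starts at 24146683 on the plus strand, inside PSME2 on the minus strand. Beyond it follow IRF9 and REC8 (−1.98, adjusted p = 0.0056, and −1.43 without vehicle replicate 3). On the other side lies DCAF11 (−0.52, adjusted p = 0.00397). All these genes were within 25 kb of PSME1 or PSME2.

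Immune cells are rich in immunoproteasomes, and their markers were therefore checked. Of 9 leukocyte markers, CD3E and MS4A1 had 0 counts in each library, PTPRC had at most 1 count, and 2 were tested. The summed level of the list was 13.4, 14.9, 19.8 and 15.6 CPM in vehicle and 22.1, 21.0, 18.95 and 18.97 CPM with TP-472, with vehicle replicates 1, 2 and 4 below all TP-472 libraries. Its most abundant gene, CD68, a lysosomal gene of macrophages that other cells also express, rose by 0.47 (adjusted p = 0.0307). CORO1A, the other marker tested, passed without vehicle replicate 3 (0.30, adjusted p = 0.0224) and not with it (0.049, adjusted p = 0.869). Of 4 endothelial markers and 2 erythroid markers, 0 passed the filter. Of 5 epithelial markers 3 were tested, of which KRT18 rose (log2 fold change 1.08, adjusted p = 7.26e-04) and KRT19 fell (−0.85, adjusted p = 0.0151). Of the 8 smooth muscle markers, 7 were tested. ACTA2 and TAGLN fell by 0.55 and 0.67 on the log2 scale (adjusted p = 0.00426 and 0.00397), also without vehicle replicate 3. Of all tested genes 19.1% were lower at this limit, and 28.5% without that library. CALD1, the most abundant, CNN1 and SMTN did not pass (log2 fold changes −0.059, 0.13 and −0.68, adjusted p = 0.646, 0.696 and 0.149). SMTN was at −0.14 without vehicle replicate 3 (adjusted p = 0.204). MYH11, under the filter, had at most 1 count in vehicle and 7 to 10 counts with TP-472. DES and LMOD1 were above 1 CPM in the vehicle group alone and are therefore given by level, at 3.25 ± 0.203 and 2.53 ± 1.04 CPM in vehicle and 0.629 ± 0.169 and 0.702 ± 0.172 CPM with TP-472 (SD, n = 4 each). In bulk RNA, fewer cells of a type and less RNA per cell cannot be told apart.

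Pseudogenes can take reads from proteasome genes. The 35 annotated proteasome pseudogenes together had counts equal to 0.0336% to 0.145% of those of the proteasome genes per library, nearly all on PSMC1P1 (59.5 to 352.7 counts), a copy of PSMC1.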

How the data were processed

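Total RNA of SK-UT-1 cells that received DMSO or TP-472 was sequenced, with 4 replicates per group. The authors prepared libraries from total RNA, estimated transcript abundance with Salmon (1.4.0 per the submitters' processing notes, genome build GRCh38) and summed it to genes with tximport and GENCODE 34. The deposited values are estimated counts, neither normalized nor filtered. The strand setting of the counting is not given in the sources used here.

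After rounding to whole numbers, genes above 1 CPM in 4 or more of the 8 libraries were kept, scaled by TMM and tested in edgeR 4.0.16 (R 4.3.3) by its quasi-likelihood method, with Benjamini-Hochberg adjustment over all 14073 genes and no covariate. Levels are TMM-scaled CPM. A gene was called when its adjusted p-value was under 0.05 and it changed over 1.5-fold, and "rose", "fell" or "passed" refer to the adjusted p-value alone. Ratios were log2 of counts with 0.5 added to each, tested by exact permutation (scipy 1.17.1). Levels were compared between genes per kilobase of the principal transcript (GENCODE 29). Promoter windows came from RefSeq, GRCh38.p14.

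Named with values in every library were the 5 immunoproteasome genes, their counterparts, and, in each role, the genes called and those with the largest and smallest change. PSMA3, PSMC4, PSMD2, PSMD12, PSMG3, PSMD10, PSMF1, the non-PSM genes shown in full and the chromosomal neighbours were chosen after their values were seen. The members, gene lists and motifs were chosen with earlier results of these data known. Alternatives were DESeq2 1.42.0, RLE and library-total scaling, 2 other filters, the replicate number as a block, a GC correction, no fold limit and each library left out. Counts without the fold limit under each fit and the GC-corrected ratios were chosen after seeing the data. The main edgeR fit was checked on simulated counts, and the alternative fits were not checked in this way. No library was a copy of another (lowest mean chi-square between libraries 12.9, where copies would be near 1). A few genes of the pathway lists were counted but their own values are not reported here.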

Additional observations from a re-analysis of the deposited data

Results flagged for a closer look

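In groups of 4 libraries, a library was flagged when its distance to the nearest other library, as a share of the range of the group, exceeded Dixon's critical value for 4 samples. Of the 44 groups examined (levels of the proteasome genes that the naming rule picked and the 3 ratios, by treatment) 5 were flagged, where chance flags about 1 in 20. Vehicle replicate 3 was the outlying library in 3 of them. It was the highest for PSMB2 (0.889 of the range), the lowest for the ratio of PSMB9 to PSMB6 (0.922) and the highest for the ratio of PSMB10 to PSMB7 (0.929). TP-472 replicate 4 was the highest of its group for PSMD5 (0.928) and for PSME4 (0.869).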

How the results depend on the processing

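The directions of the 5 immunoproteasome genes, of PSME3 and PSMG1, of the median of the constitutive subunits and of the 3 ratios held under all alternatives run. With each library left out in turn, 2486 (without TP-472 replicate 3) to 4110 (without vehicle replicate 2) of all tested genes were called, in place of 3789, and 1 to 6 of the proteasome genes in place of 2 (6 without vehicle replicate 2). The constitutive subunits called were 0 to 4 in place of 0 (4 without vehicle replicate 2). Genes at an adjusted p-value under 0.05 were 4 to 24 higher, in place of 11, and 1 to 5 lower, in place of 3, with the highest numbers without vehicle replicate 3. Without the fold limit 14 proteasome genes and 8 constitutive subunits were called, as were 5102 of all tested genes. With the GC correction 6 proteasome genes (PSMB9, PSMC3, PSMC4, PSMD8, PSMG1 and PSMG3) and 3 constitutive subunits were called, as were 3942 of all tested genes. With this correction 18 proteasome genes were higher at an adjusted p-value under 0.05, and the ratios of PSMB8 to PSMB5 and PSMB10 to PSMB7 changed by −0.617 and −0.618. Without a filter on low counts, 5 proteasome genes were higher and 1 lower at this limit, and with library totals as the only scaling 5 were lower. The cause of these shifts was not tested. Same-numbered vehicle and TP-472 libraries did not deviate together (correlations −0.0554, 0.116, −0.171 and −0.177), and no vehicle library correlated best with its own number, so the numbers were not taken to pair the samples. With the replicate number as a block, 5 proteasome genes were higher and 1 lower at an adjusted p-value under 0.05. With this block 2 were called, as were 3055 of all tested genes. Shares of all genes at an adjusted p-value under 0.05 alone were counted only for the main fit and without vehicle replicate 3. PSMG1 lost its call in 6 of the 8 fits that left out a library. The effect of depth on the precision was not tested.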
